A study of Sus scrofa with 4 samples.

Results

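The genes that shape, move and renew mitochondria were examined in porcine oocytes matured *in vitro* with or without added copper (Cu). The group held 10 genes, taken by gene symbol from the 16050 genes listed with values: the fusion genes *MFN1*, *MFN2* and *OPA1*, the fission genes *DNM1L*, *FIS1* and *MFF*, the mitochondrial DNA genes *TFAM* and *POLG*, and the regulators *PPARGC1A* and *NRF1*. All 10 were listed with values, and 6 of them were expressed strongly enough to be tested. RNA was sequenced from 4 libraries of metaphase II oocytes, 2 labelled Control (replicates 1 and 2) and 2 labelled Copper (replicates 1 and 3, called Cu 1 and Cu 3 here). According to the methods, each library pooled 3 oocytes from slaughterhouse ovaries, cultured as cumulus-oocyte complexes in the same hormone-supplemented maturation medium for 42 to 44 h, with copper sulfate at 25 μg/mL in the Cu group and none added in the Control group. The methods describe 3 samples in each group, and 1 of each group was not analysed here. The age and breed of the animals were not given in the sources used here. RNA was amplified by Smart-seq2, which copies polyadenylated transcripts from a few cells.

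Mitochondria divide and join continuously. Fusion of the outer membrane is carried out by the mitofusins MFN1 and MFN2 and that of the inner membrane by the dynamin-like GTPase OPA1. Fission is carried out by DNM1L (DRP1), a cytosolic GTPase that is recruited to the outer membrane by adaptors such as MFF, while FIS1 is an outer membrane protein also linked to fission and mitophagy. TFAM packages mitochondrial DNA and starts its transcription, POLG is the catalytic subunit of its polymerase, and PPARGC1A (PGC-1α) and NRF1 switch on the nuclear genes of mitochondrial biogenesis. An oocyte holds more mitochondria than most cells and passes them to the embryo, and at metaphase II it makes little new RNA and relies on stored transcripts.

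The values were FPKM (fragments per kilobase of transcript scaled to the library's fragments), which take transcript length into account when genes are compared. RNA was copied from the poly(A) tail and amplified, and whether all transcripts were copied alike was not tested. Levels of different genes are therefore compared as FPKM only. Read totals are lost in this unit and the depth is unknown. They are shares of a library, so that a lower value for one gene cannot be told apart from more RNA of other genes, or fewer cells of a type from less RNA per cell. At least 1 FPKM was reached by 7923 genes in Control 1 and 8162 in Control 2, against 9364 in Cu 1 and 8122 in Cu 3. Across the 8541 tested genes, which are not independent replicates, Cu 3 had a Pearson's correlation of 0.959 and 0.965 with the Control libraries and of 0.923 with Cu 1, so Cu 1 stood apart from the other three libraries. Without Cu 1 the median log2 fold change of all tested genes was 0.0058 in place of 0.16. All 12 oocyte markers examined, such as *ZP3*, *GDF9* and *BMP15*, were at 1 FPKM or more in all 4 libraries. Of 15 markers of cumulus and granulosa cells, 10 were listed with values, their sum lay between 13.9 and 18.0 FPKM in the Control libraries and between 18.9 and 24.2 FPKM in the Cu libraries, and most of it was *KITLG*. *AMH* was listed at 0 in all 4 libraries, but each other gene of the 10 was above 0 in at least 1 library. *VCAN* lay between 0.49 and 1.43 FPKM.

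The levels of the 10 genes lay far apart. *MFF* and *MFN1* were the most abundant, *DNM1L* and *OPA1* followed, *FIS1* and *NRF1* varied widely between libraries, and *MFN2*, *TFAM*, *POLG* and *PPARGC1A* stayed below 1 FPKM in every library. By mean FPKM over the 4 libraries, the order was *MFF* (87.6), *MFN1* (69.9), *DNM1L* (22.4), *OPA1* (21.0), *FIS1* (8.61), *NRF1* (2.08), *MFN2* (0.808), *TFAM* (0.42), *PPARGC1A* (0.0875) and *POLG* (0.0725). Of the 9 pairs of neighbours in this order, only *MFN1* and *DNM1L* had ranges that did not overlap. *MFF* was above *MFN1* in 3 of 4 libraries and *DNM1L* above *OPA1* in 3 of 4, so neither pair was separated beyond the spread of the libraries.

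**Figure D1:**
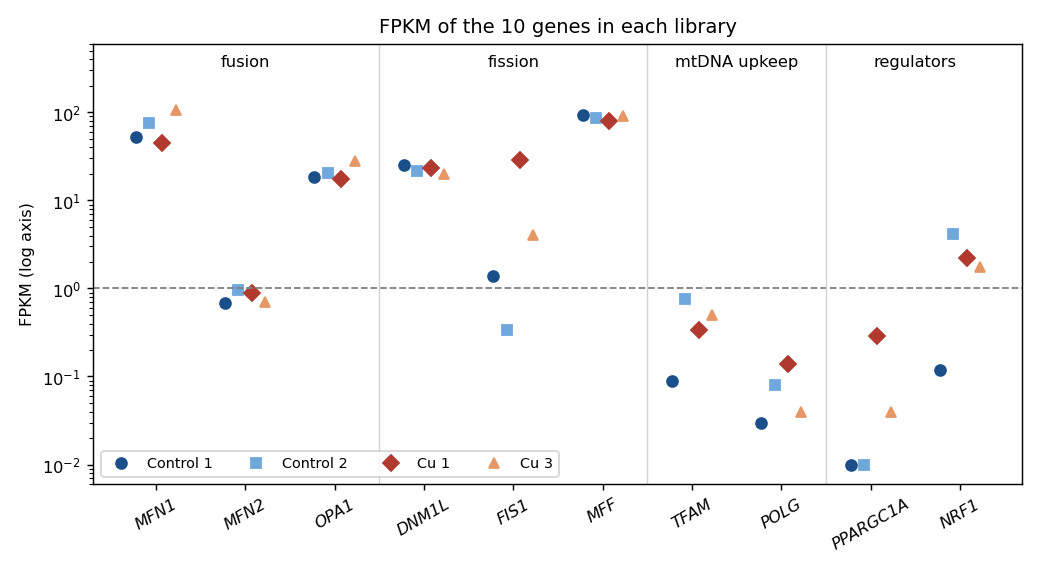
FPKM of the 10 genes (log axis) in Control 1, Control 2, Cu 1 and Cu 3, 1 point per library, grouped by role, with a dashed line at 1 FPKM. *MFF*, *MFN1*, *DNM1L* and *OPA1* lie above the line in all 4 libraries and *MFN2*, *TFAM*, *POLG* and *PPARGC1A* below it, while the points of *FIS1* spread from 0.34 to 28.6 FPKM.

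Among the fusion genes, *MFN1* (identifier 100627612, chr13:117404637-117441750 in Sscrofa11.1) had 52.8 FPKM in Control 1 and 75.5 in Control 2, against 44.5 in Cu 1 and 107 in Cu 3. Both the lowest and the highest value were thus in the Cu group, and the Control values lay between them. *OPA1* (identifier 100522705, chr13:130624771-130718345) had 18.3 FPKM in Control 1 and 20.7 in Control 2, against 17.3 in Cu 1 and 27.8 in Cu 3, again with the Control values inside the range of the Cu values. The 2 genes thus had the same order of libraries, with Cu 3 highest and Cu 1 lowest. *MFN2* (identifier 100512354, chr6:72026512-72056439) had 0.68 FPKM in Control 1 and 0.97 in Control 2, against 0.88 in Cu 1 and 0.70 in Cu 3. *MFN1* therefore had 77.6 times the FPKM of *MFN2* in Control 1 and 77.8 times in Control 2, against 50.5 times in Cu 1 and 153 times in Cu 3. Of the 2 mitofusins, *MFN1* thus made up nearly all of the FPKM in each library.

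The log2 fold change of *MFN1* between Cu and Control was 0.13 (standard error, SE, 0.48, 95% interval -1.05 to 1.30), computed on log2(FPKM + 1) with limma's moderated test. With an adjusted p of 0.960 it did not pass the threshold of 0.05, and the interval leaves room for changes from 0.484-fold to 2.46-fold. *OPA1* had a log2 fold change of 0.17 (SE 0.37, 95% interval -0.74 to 1.08, adjusted p = 0.927 in limma). Without Cu 1 the log2 fold change was 0.75 for *MFN1* and 0.50 for *OPA1*, and without Cu 3 it was -0.50 and -0.16, so the direction of both depended on which Cu library was used, and that of *MFN1* also turned (-0.13) without Control 1. Both also turned below 0, to between -0.13 and -0.02, when the libraries were scaled by their upper quartile or median of ratios or were quantile-normalized, which moved the median of all tested genes from 0.16 to between -0.06 and -0.04. Relative to that median, *MFN1* was at -0.04 and *OPA1* at 0.01 on the log2 scale.

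Among the fission genes, *DNM1L* and *MFF* hardly varied while *FIS1* had a wider range than 99.8% of the tested genes. *MFF* (identifier 100513442, chr15:128768441-128799355) had 94.3 FPKM in Control 1 and 86.1 in Control 2, against 79.3 in Cu 1 and 90.6 in Cu 3. Its highest value was 1.19 times its lowest, and it ranked between the 93.3rd and the 94.9th percentile of all listed genes in the 4 libraries. *DNM1L* (identifier 100624497, chr5:41571054-41636058) had 25 FPKM in Control 1 and 21.6 in Control 2, against 23.1 in Cu 1 and 20.0 in Cu 3, a 1.25-fold range. The values of the groups overlapped for both genes. Only 2.97% of the tested genes had a narrower range of log2(FPKM + 1) over the 4 libraries than *MFF*, and 5.70% a narrower one than *DNM1L*. The log2 fold change was -0.09 for *MFF* (SE 0.28, 95% interval -0.78 to 0.60, adjusted p = 0.953 in limma) and 0.0085 without Cu 1. It was -0.11 for *DNM1L* (SE 0.32, 95% interval -0.90 to 0.68, adjusted p = 0.95 in limma). Relative to the median of all tested genes these were -0.25 and -0.27. In the RefSeq annotation *DNM1L* overlaps *YARS2*, and the counting was not stated to use strand, so reads in the shared stretch cannot be assigned with certainty.

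*FIS1* (identifier 100622909, chr3:8938250-8942102) had 1.39 FPKM in Control 1 and 0.34 in Control 2, against 28.6 in Cu 1 and 4.09 in Cu 3. The Cu values were thus all above the Control values, and Cu 1 had 6.99 times the value of Cu 3. The log2 fold change was 2.78 (SE 0.85, 95% interval 0.71 to 4.85), higher than that of 99.8% of the tested genes. Its unadjusted p was 0.0168 and its adjusted p over all 8541 genes was 0.641 in limma, so it did not pass the threshold. Without Cu 1 the log2 fold change was 1.51 (adjusted p = 0.0731 in limma), and without Control 2 the unadjusted p was 0.0813. Without Cu 3 it was 4.05 with an adjusted p of 2.88e-08 in limma, a fit in which Cu 1 is the only Cu library and is assumed to vary like the Control libraries. Over the fits run, the adjusted p ranged from 2.88e-08 to 1.0, and the direction was upward in each of the fits that tested *FIS1*. A filter that required 1 FPKM in every library removed *FIS1* and *NRF1*.

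The authors' mean FPKM, which the table gives for each group, was 2.27 for Control and 11.6 for Cu for *FIS1*, 93.6 and 81.3 for *MFF*, 26.3 and 21.4 for *DNM1L*, 58.3 and 66.9 for *MFN1* and 21.2 and 23.0 for *OPA1*. For all 16050 genes these means have the decimals of a mean over 3 libraries, and no SD is given for them. The ratio of Cu to Control for *FIS1* was 5.11 in these means, against 18.9 for the means of the 4 libraries. What the means hold beyond the 4 libraries was lower in Cu than in Control for *FIS1*, opposite to the 4 libraries, so that the separation of the groups is shown for those 4 alone. Over all genes at an unadjusted p of 0.05 or less in the 4 libraries, the remainder of the means lay in the same direction for 284 of 599 (47.4%), where it did for 47.8% of all tested genes.

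*FIS1* is also the shortest of the 10 genes, with a span of 3853 bp, and 7.08% of the tested genes span less. The median log2 fold change between Cu and Control was 0.54 over the 823 tested genes of 5 kb or less, against 0.14 for longer genes, and 17.9% of them were higher in Cu at an unadjusted p of 0.05, against 4.28% of longer genes. A part of gene length in the value of *FIS1* was not tested. An lncRNA gene, *LOC102164200*, overlaps the span of *FIS1*.

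**Figure D2:**
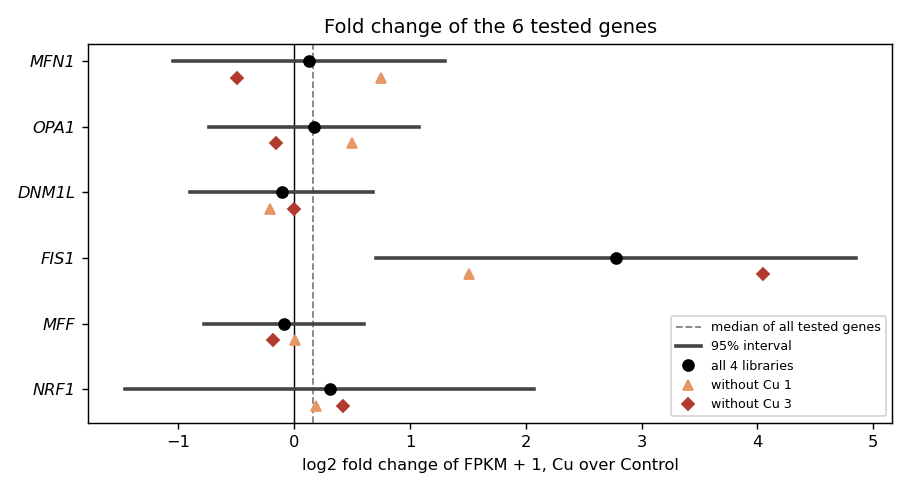
Log2 fold change of FPKM + 1 between Cu and Control for the 6 tested genes, with the 95% interval of limma's fit (bars), the values without Cu 1 (triangles) and without Cu 3 (diamonds) and the median of all tested genes (dashed line). The interval of *FIS1* (0.71 to 4.85) lies above 0, and those of the other 5 genes include 0.

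Counted together, 1 of the 6 tested genes, *FIS1*, had an unadjusted p of 0.05 or less, where 7.01% of all 8541 tested genes did, 5.58% higher and 1.43% lower in Cu. The limma fit put 0 of the 6 below an adjusted p of 0.05 and 0 of all 8541 tested genes (0%), with 599 of the latter at an unadjusted p of 0.05 or less. In fits with 1 Cu library, 203 genes were below the adjusted p without Cu 1, none of the 6 among them, and 1890 without Cu 3, among them *FIS1*. *FIS1* was likewise the only one of the 6 whose groups did not overlap, compared with 38.8% of all tested genes. The log2 fold change was above 0 in 4 of the 6, compared with 64.3% of all tested genes, and in 2 of the 6 after upper-quartile scaling. Of the 599 genes, 477 were higher and 122 lower in Cu, 79.6% higher, and this share was 54% after upper-quartile scaling, 58% after median-of-ratios scaling, 55.6% after quantile normalization and 55% without Cu 1. A share over 6 genes that passed a filter on low values describes those 6 and not all 10.

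Fusion and fission oppose each other, so the summed FPKM of the fusion genes was set against that of the fission genes in each library. The fusion genes summed to 71.7 and 97.1 FPKM in Control 1 and 2 and to 62.7 and 135 FPKM in Cu 1 and 3. The fission genes summed to 121 and 108 FPKM in the Control libraries and to 131 and 115 FPKM in Cu 1 and 3. The ratio of fusion to fission was 0.594 in Control 1 and 0.900 in Control 2, against 0.478 in Cu 1 and 1.18 in Cu 3, so the Cu libraries held both the lowest and the highest ratio. The difference of the mean log2 ratios, Cu minus Control, was 0.04, with an SD of 0.42 in the Control group and 0.92 in the Cu group (n = 2 each, two-sided exact permutation test, p = 1.0). The difference was 0.69 without Cu 1, -0.61 without Cu 3 and -0.26 without Control 1. With 2 libraries against 2 this test cannot give a p below 0.333.

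The make-up of the fission sum differed between libraries. *FIS1* was 1.15% of it in Control 1 and 0.315% in Control 2, against 21.8% in Cu 1 and 3.57% in Cu 3. *MFF* was 78.1% of it in Control 1 and 79.7% in Control 2, against 60.5% in Cu 1 and 79.0% in Cu 3. Without *FIS1* the ratio of fusion to fission was 0.601 and 0.903 in the Control libraries and 0.612 and 1.22 in Cu 1 and 3. When geometric means, which give each gene the same weight, were used in place of sums, the difference of the log2 ratios was -1.17.

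**Figure D3:**
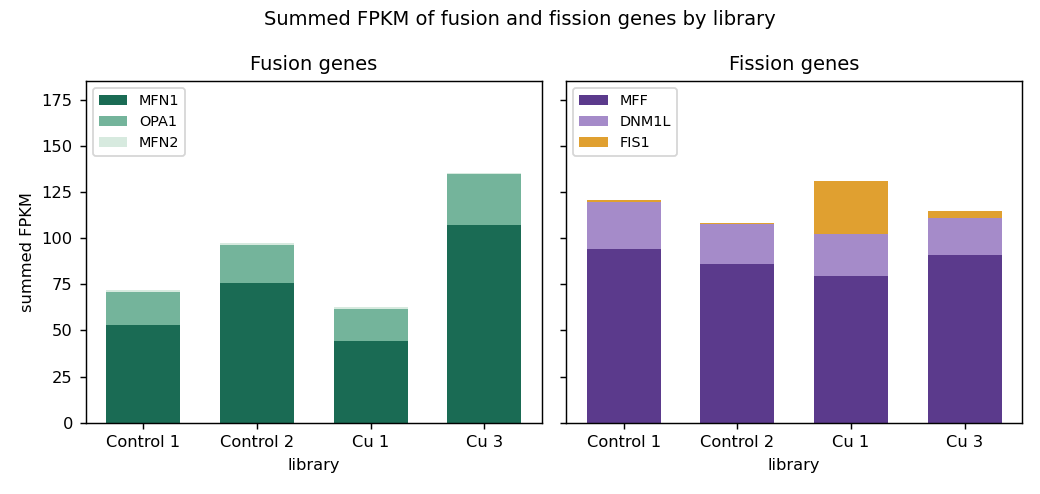
Summed FPKM in each library of the fusion genes (left, *MFN1*, *OPA1* and *MFN2*) and of the fission genes (right, *MFF*, *DNM1L* and *FIS1*), as stacked bars from 0, 1 bar per library. *MFN1* and *MFF* form most of each bar, the fusion sum runs from 62.7 FPKM in Cu 1 to 135 FPKM in Cu 3, and *FIS1* is a large part only of the bar of Cu 1.

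The mitochondrial DNA genes had low FPKM. *TFAM* (identifier 397279, chr14:92261713-92279731) had 0.09 FPKM in Control 1 and 0.75 in Control 2, against 0.34 in Cu 1 and 0.50 in Cu 3. The Cu values lay between the Control values, and the mean of both groups was 0.42 FPKM. *TFAM* ranked between the 27.4th and the 46.1st percentile of listed genes. *POLG* (identifier 100157469, chr7:54889150-54907167) had 0.03 FPKM in Control 1 and 0.08 in Control 2, against 0.14 in Cu 1 and 0.04 in Cu 3, at the 24.9th percentile of listed genes or lower in each library. The annotation places *FANCI* across part of *POLG*. Neither gene reached 1 FPKM in any library, so neither was tested, and the precision of such values is not known without the depth.

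Some other genes of mitochondrial DNA upkeep were far more abundant and others were not, and those named here were chosen after their values were seen. *POLG2*, the accessory subunit that clamps POLG to DNA, had 99.97 FPKM in Control 1 and 81.2 in Control 2, against 86.0 in Cu 1 and 109 in Cu 3. *SSBP1*, the mitochondrial single-strand DNA-binding protein, had between 15.5 and 46.7 FPKM, and *TWNK*, the replicative helicase, between 2.12 and 4.94 FPKM. *POLRMT*, the mitochondrial RNA polymerase, was at 0.08 FPKM or less in each library, while *POLG* was at 0.14 FPKM or less. *TFB2M*, *MTERF2* and *MTERF4* also stayed below 1 FPKM in each library. Both subunits of the polymerase were thus listed, at levels far apart in each library.

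Of the 24 genes in the list for mitochondrial DNA replication, transcription and nucleotide supply, 23 were listed with values and 18 were tested, 11 of them higher and 7 lower in Cu, with a median log2 fold change of 0.18 where all tested genes had 0.16. Of these 18, 3 (16.7%) passed an unadjusted p of 0.05, where 7.01% of all tested genes did, and none passed the adjusted p in limma. *TFB1M*, a methyltransferase of the mitochondrial ribosomal RNA, had 11.4 FPKM in Control 1 and 7.47 in Control 2, against 26.8 in Cu 1 and 22.6 in Cu 3, with a fitted log2 fold change of 1.32 (SE 0.37). *MGME1*, a nuclease of mitochondrial DNA maintenance, had 1.67 FPKM in Control 1 and 3.84 in Control 2, against 11.6 in Cu 1 and 6 in Cu 3, with a fitted log2 fold change of 1.38 (SE 0.49). *MTERF3*, a negative regulator of mitochondrial transcription, had 167 FPKM in Control 1 and 177 in Control 2, against 92.1 in Cu 1 and 94.98 in Cu 3, with a fitted log2 fold change of -0.87 (SE 0.27). In each of these 3 genes the groups did not overlap in the 4 libraries. The same held for 38.9% of the 18 genes and for 38.8% of all tested genes. The authors' means were less far apart for *TFB1M* (11.4 for Control and 20.1 for Cu) and *MTERF3* (152 and 107), in both of which the remainder of the means lay in the opposite direction, and were 2.76 and 8.13 for *MGME1*.

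**Figure D4:**
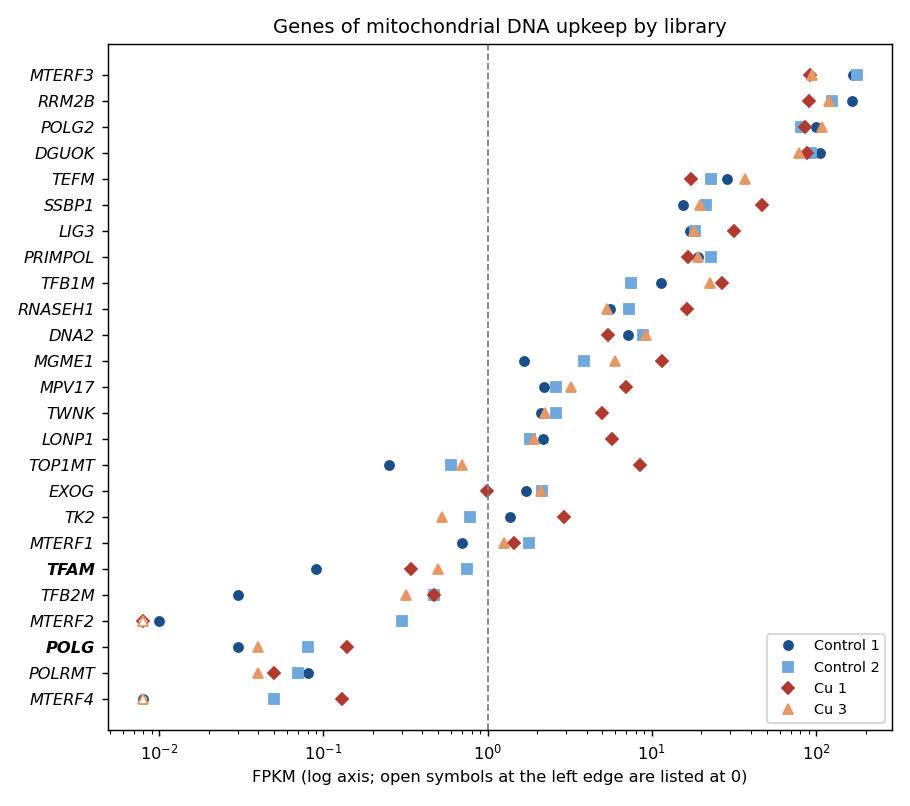
FPKM (log axis) of *TFAM*, *POLG* and the 23 other listed genes of mitochondrial DNA upkeep in the 4 libraries, ordered by mean level, with a dashed line at 1 FPKM and open symbols for values listed at 0. *TFAM* and *POLG* (bold) are among the 6 lowest genes, and *POLG2* among the 3 highest.

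The regulators of biogenesis had low FPKM as well. *PPARGC1A* (identifier 397013, chr8:17841844-18527953) was at 0.01 FPKM, the smallest value above 0 that the rounding allows, in both Control libraries, and at 0.29 and 0.04 FPKM in Cu 1 and 3. Both Cu values were above both Control values, as in 25.4% of all tested genes. All lay at the 28.7th percentile of listed genes or lower, and *PPARGC1A* was not tested. What the authors' means hold beyond the 4 libraries was equal in Cu and Control for it, so the separation is shown for those 4 alone. *NRF1* (nuclear respiratory factor 1, not the stress factor NFE2L1 that shares the name; identifier 100517203, chr18:19008408-19142678) had 0.12 FPKM in Control 1 and 4.20 in Control 2, against 2.24 in Cu 1 and 1.75 in Cu 3. The Control libraries thus held both its lowest and its highest value, 35.0-fold apart. Its log2 fold change was 0.31 (SE 0.72, 95% interval -1.46 to 2.07, adjusted p = 0.935 in limma), and it was -0.80 without Control 1 and 1.41 without Control 2.

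Of 17 other regulators and partners of biogenesis, 16 were listed with values and 10 tested, 4 of them higher and 6 lower in Cu, with a median log2 fold change of -0.14. None of the 10 passed an unadjusted p of 0.05 in limma. Of all tested genes, 64.3% were higher in Cu. Named after its values were seen, the orphan nuclear receptor *ESRRG* had 99.1 FPKM in Control 1 and 81.1 in Control 2, against 108 in Cu 1 and 68.5 in Cu 3. *PPRC1*, a relative of *PPARGC1A* chosen in the same way, had 8.34 FPKM in Control 1 and 12.6 in Control 2, against 22.0 in Cu 1 and 7.95 in Cu 3, and *PPARGC1B* was listed at 0 in 3 of 4 libraries. Of the 3 genes of the PGC-1 family, *PPRC1* therefore had the highest FPKM in each library. By the rule for naming, *HCFC1*, a transcriptional coregulator, was the gene with separated groups furthest up (log2 fold change 0.62), and *SIRT3*, the main mitochondrial deacetylase, was the one furthest down (-0.67).

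The partners of the fusion and fission genes were read in the same way. Of 13 fusion partners and inner membrane proteases, 10 were tested, 3 higher and 7 lower in Cu (median log2 fold change -0.15). Of all tested genes, 64.3% were higher in Cu. An unadjusted p of 0.05 was passed by 2 of the 10 (20%), where 7.01% of all tested genes passed it. *PARL*, a rhomboid protease of the inner membrane, had 4700 FPKM in Control 1 and 4794 in Control 2, against 3192 in Cu 1 and 2792 in Cu 3, with a fitted log2 fold change of -0.67 (SE 0.22). *PHB2*, a prohibitin that scaffolds the inner membrane, had 78.3 FPKM in Control 1 and 44.5 in Control 2, against 147 in Cu 1 and 98.4 in Cu 3, with a fitted log2 fold change of 1.01 (SE 0.40). The log2 difference of the authors' means was -0.27 for *PARL* (4041 FPKM for Control and 3360 for Cu) and 0.57 for *PHB2* (71.0 and 106), and in both genes the remainder of the means lay opposite to the 4 libraries. *OMA1*, the stress-activated protease that cleaves OPA1, was named after its values were seen. It had 154 FPKM in Control 1 and 283 in Control 2, against 120 in Cu 1 and 292 in Cu 3, and its groups overlapped.

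Of 13 fission adaptors and helpers, 11 were listed with values and 8 tested, 5 higher and 3 lower in Cu (median 0.076, and -0.16 after upper-quartile scaling), with none past an unadjusted p of 0.05 in limma. Of all tested genes, 64.3% were higher in Cu. *DNM2*, a dynamin, was the gene with separated groups furthest up (0.82) and *MTFR1L*, a mitochondrial fission regulator-like gene, the one furthest down (-0.43). In both genes the remainder of the authors' means lay opposite to the libraries analysed here.

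The median log2 fold change of the 7 tested cristae genes was 0.75, with 6 of 7 higher in Cu, where 64.3% of all tested genes were. This median was 0.12 without Cu 1 and 1.30 without Cu 3. The groups did not overlap in 57.1% of the 7, compared with 38.8% of all tested genes. An unadjusted p of 0.05 in limma was passed by 1 of the 7 (14.3%), where 7.01% of all tested genes passed it. The gene past that p, *MICOS10* (listed as *MINOS1*), a core subunit of the complex that shapes the cristae junctions, had 69.5 FPKM in Control 1 and 94.6 in Control 2, against 313 in Cu 1 and 281 in Cu 3. Both Cu values lay well above both Control values in the libraries analysed here. Its log2 fold change was 1.86 (SE 0.29, adjusted p = 0.631 in limma). The log2 difference between the authors' means (139 FPKM for Control and 294 for Cu) was smaller, at 1.07. These means include a library of each group not analysed here, and the Control mean lay above both Control values given. The remainder of the means was higher in Cu, as in the libraries analysed here. The one cristae gene with groups separated downward was *APOOL* (-0.34). The 9 mitophagy genes had a median of 0.24 and the 5 tested genes of mitochondrial transport -0.01, and none of these 14 passed an unadjusted p of 0.05. The mitophagy median was 0.051 without Cu 1, 0.045 without Control 1, 0.52 without Cu 3 and -0.026 after quantile normalization, and that of the transport genes ran from -0.13 (without Control 2) to 0.18 (without Cu 3). *PINK1*, the kinase that marks damaged mitochondria, had 3.24 FPKM in Control 1 and 3.92 in Control 2, against 16.1 in Cu 1 and 5.79 in Cu 3 (log2 fold change 1.24). *CLUH*, which binds mRNAs of mitochondrial proteins, was the transport and positioning gene furthest up (1.19). *RHOT1*, which links mitochondria to motors, was the one furthest down (-0.22), with 107 FPKM in Control 1 and 99.97 in Control 2, against 80.1 in Cu 1 and 97.6 in Cu 3. The remainder of the authors' means lay opposite to the libraries analysed here for *CLUH* and in the same direction for *RHOT1*.

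Over the 7 lists, 6 of 67 tested genes (8.96%) passed an unadjusted p of 0.05, 4 of them higher and 2 lower in Cu, where 7.01% of all tested genes did, and none passed an adjusted p of 0.05 in limma. The groups did not overlap in 24 of the 67 (35.8%), 12 in each direction, where they did not overlap in 38.8% of all tested genes. The median log2 fold change of the 67 was 0.11, below the 0.16 of all tested genes.

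**Figure D5:**
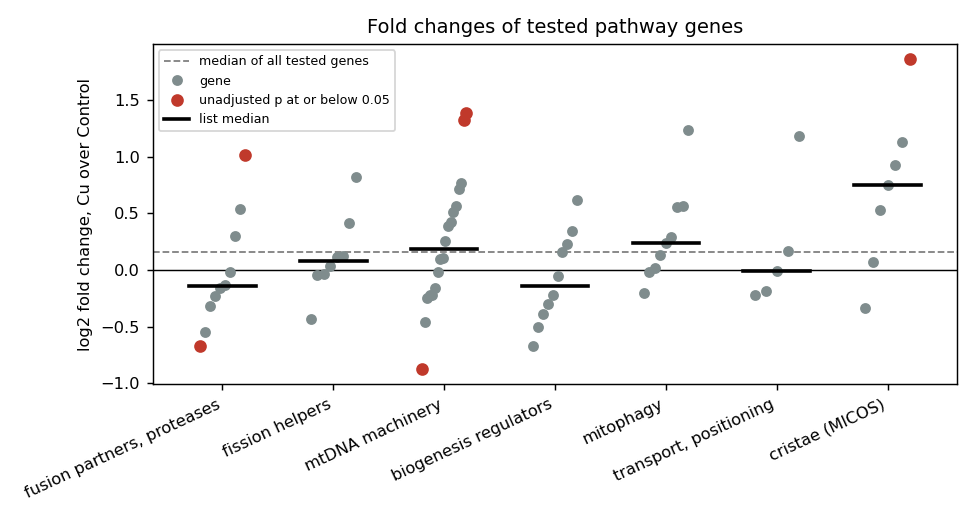
Log2 fold change between Cu and Control of the 67 tested pathway genes in 7 lists, 1 point per gene, with list medians (black bars), the median of all tested genes (dashed line) and the 6 genes at an unadjusted p of 0.05 or less in red. The list medians run from -0.15 for the fusion partners to 0.75 for the cristae genes.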

How the data were processed

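The authors deposited 1 table of FPKM, rounded to 2 decimals, in which 16050 of 30684 rows hold values, together with a mean FPKM of each group. The remainder of such a mean is 3 times the mean less the sum of the 2 libraries of the group, and only its direction is used. The methods name SOAPnuke, HISAT2, Bowtie2 and RSEM, whereas the submitters' processing notes name TopHat2 (2.0.13) and Cufflinks (2.2.1) and the build Sscrofa11.1. Which of them made the FPKM is not settled here. Groups and replicate numbers were taken from the sample titles, and dose, culture time and number of oocytes from the methods. Nothing states that the libraries of a group came from separate cultures, so p-values measure the spread between these libraries, which may be technical.

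The 8541 genes that reached 1 FPKM in 2 or more libraries were compared on log2(FPKM + 1) with limma 3.58.1 in R 4.3.3 (eBayes with a variance trend, Benjamini-Hochberg adjustment over all tested genes). The added 1 makes fold changes of weakly expressed genes smaller. The fit was tested on simulated data. Low values showed no steps of whole reads, so no depth, interval or floor that needs it is given. Gene positions come from the RefSeq table of Sscrofa11.1, in which all 10 identifiers were found. 1 listed gene, *MARCH5*, whose symbol the table holds as a date, was matched by its identifier. Sequences were not used here. From each list of partner genes the text names the genes with separated groups furthest up and furthest down and each gene at an unadjusted p of 0.05 or less. The 10 genes, the lists and the tests were chosen with earlier results of these data known.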

Additional observations from a re-analysis of the deposited data

How the results depend on the processing

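No paired analysis was possible because the groups share only replicate number 1. Depth is unknown, which limits most the 4 genes below 1 FPKM. No setting other than leaving out a library gave a gene past an adjusted p of 0.05, and the unadjusted number of all genes (599) was within 1.5 times. Leaving out each library in turn, which leaves 1 group with a lone library assumed to vary like the other group, gave 0 to 1890 genes past the adjusted p (203 without Cu 1, 1890 without Cu 3) and 134 to 2913 past the unadjusted one, 123 to 2309 higher and 11 to 604 lower. The genes lower in Cu at the unadjusted p numbered 238 without a filter, 303 after upper-quartile scaling, 272 after median-of-ratios scaling and 288 after quantile normalization.

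*FIS1* was higher in Cu in each alternative that tested it, at log2 fold changes from 1.51 to 4.05 with each library left out. A filter of 1 FPKM in every library, which removes *FIS1* and *NRF1*, left 4 tested genes of the group. Of these, 0 passed an unadjusted p of 0.05 in limma and 2, *MFN1* and *OPA1*, were higher in Cu. Each of the 3 scalings above left a different 2 of 6 genes higher, *FIS1* and *NRF1*. Leaving out libraries gave 2 to 5 of 6 higher. *MFN1* reversed to -0.13, -0.12 and -0.038 and *OPA1* to -0.082, -0.064 and -0.018 under upper-quartile, median-of-ratios and quantile scaling, which moved the median of all genes to -0.058 under the first. With each library left out, *MFN1* ran from -0.50 to 0.75, *OPA1* from -0.16 to 0.50, *MFF* from -0.18 to 0.0085 (reversed without Cu 1), and *NRF1* from -0.80 (without Control 1) to 1.41. *DNM1L* kept its sign in each alternative, but ran from -0.21 to -0.0039 with each library left out, so its size depended on the library.

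The Cu minus Control difference of the log2 ratio of fusion to fission moved to -1.17 with geometric means. The median of the fusion partners moved to -0.37 under upper-quartile scaling and ran from -0.29 to 0.14 (without Control 2) with libraries left out. That of the mitochondrial DNA list moved to 0.39 with 1 FPKM in every library and -0.012 after quantile normalization, and ran from 0.050 (without Cu 1) to 0.49 (without Cu 3). That of the biogenesis regulators moved to -0.39, -0.38 and -0.30 under the same 3 scalings and ran from -0.24 to 0.037 (without Cu 1). That of the fission helpers moved to -0.16, -0.14 and -0.083 under the same 3 scalings and ran from -0.011 (without Control 1) to 0.21. With libraries left out, the difference of the log2 ratio of fusion to fission ran from -0.61 to 0.69. In the same fits the cristae median ran from 0.12 to 1.30 and the mitophagy median from 0.045 to 0.52. Causes of these changes were not tested beyond what the settings themselves remove. The authors' means were added as an alternative after the data had been seen, and gave the same direction for the 6 tested genes, although what they hold beyond the 4 libraries lay in the opposite direction for 2 of them, *FIS1* and *OPA1*.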
